A study of Homo sapiens with 6 samples.

Results

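The receptors for the B cell survival factor BAFF, together with CD40 and the intracellular genes of the noncanonical NF-kB pathway, were followed in Toledo lymphoma cells treated with an inhibitor of CARM1. The group comprised 10 genes chosen by symbol: TNFRSF13C, TNFRSF13B, TNFRSF17, CD40, TRAF2, TRAF3, BIRC2, MAP3K14, NFKB2 and RELB. All 10 were found among the 18278 genes of the deposited table and all 10 passed the filter on low values, which left 16048 genes for testing. The genes were picked with the result of this same comparison known, above all the large difference in TNFRSF13C. Their values are therefore given as a description, with a standard error of the difference and no test, and tests are given only for other genes of the pathway.

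Toledo, an established human line of diffuse large B cell lymphoma, is the only line measured here. CARM1 methylates arginines of histones and of proteins that help transcription, and the compound TP-064 blocks that activity. Polyadenylated RNA was sequenced from 3 samples that received TP-064 at 5 uM over 6 days in suspension culture, and from 3 that received the solvent DMSO for the same time. The study concerns CARM1 inhibition in lymphomas with mutated CREBBP or EP300, which encode histone acetyltransferases.

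BAFF and its relative APRIL are TNF family ligands that keep mature B cells and plasma cells alive. BAFF binds the BAFF receptor, encoded by TNFRSF13C, while TACI, encoded by TNFRSF13B, and BCMA, encoded by TNFRSF17, bind both ligands. In a resting B cell the adaptors TRAF3 and TRAF2 and the ubiquitin ligase cIAP1, encoded by BIRC2, hold the kinase NIK, encoded by MAP3K14, at a low level by marking it for degradation. Engagement of the BAFF receptor or CD40 releases NIK, which acts through the kinase IKK1 so that the p100 product of NFKB2 is processed to p52, the partner of RELB. Much of this control acts on proteins, and only messenger RNA was measured here.

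The 6 libraries held 41354131 to 48360867 recovered reads. Log values correlated at 0.995 between DMSO libraries and between TP-064 replicates 1 and 2, and at 0.989 and 0.990 for the pairs with TP-064 replicate 3, which stood apart from the other treated libraries. Across all tested genes 65.1% passed a limma adjusted p of 0.05, 31.9% as higher and 33.3% as lower under TP-064. CARM1 mRNA was at 3424 ± 67.4 normalized read counts under TP-064 and 4035 ± 168 under DMSO (SD, n = 3 each), which does not check the labels because the compound acts on the protein. All 7 B cell markers were present, with a summed level of 155405 to 166500 normalized read counts under TP-064 and 142114 to 146753 under DMSO. On average 3 of them were higher and 4 lower. The widest change of the 7 was that of CD22, a small part of the sum, at a mean of 299 under TP-064 and 1746 under DMSO. Of 5 germinal centre B cell markers 4 were in the table, at summed levels of 23968 to 24708 under TP-064 and 18240 to 18848 under DMSO. That sum is nearly all MME, at a mean of 23382 under TP-064 and 16970 under DMSO, and the log2 ratios of the other 3 were negative, BCL6 at -0.30, S1PR2 at -0.39 and MYBL1 at -1.19. Of 6 T cell markers 2 were in the table, at summed levels of 103 to 113 under TP-064 and 28.0 to 45.7 under DMSO. Of 5 myeloid markers 3 were in the table, at 71.2 to 99.5 under TP-064 and 34.6 to 65.6 under DMSO, with CSF1R higher and CD14 and LYZ lower on average. Of 6 epithelial or stromal markers 3 were in the table, at 148 to 164 under TP-064 and 301 to 336 under DMSO. The part of these low marker levels in the results was not tested. Separate cultures are not stated for the replicates, and p-values then describe only the spread between these samples, part of which may be technical.

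TNFRSF13C showed the widest difference of the 10 genes. Its normalized read counts were 5941, 5507 and 5635 in TP-064 replicates 1, 2 and 3 and 425, 392 and 453 in DMSO replicates 1, 2 and 3. The groups were far apart, and the spread within each was small beside the gap. The means were 5694 ± 223 and 423 ± 30.7 (SD, n = 3 each), 13.5-fold higher under TP-064, with a log2 fold change, here called the log2 ratio, of 3.75 (SE 0.05). This was the rank 7 value from the top among the 10157 tested genes whose mean reached 200. In bulk RNA, a larger share of cells that express a gene and more of its RNA per cell cannot be told apart. TNFRSF13C occupies 41922023 to 41926818 of chromosome 22 (GRCh38, minus strand).

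TNFRSF17 was also higher under TP-064, by a smaller amount. BCMA, its product, is best known as a survival receptor of plasma cells. Its values were 1339, 1455 and 1431 normalized read counts under TP-064 against 727, 786 and 708 under DMSO, without overlap. The means differed 1.90-fold, a log2 ratio of 0.93 (SE 0.05). The 5 plasma cell markers were all present, with a summed level of 36612 to 37675 normalized read counts under TP-064 and 43515 to 44026 under DMSO. Most of that sum is IRF4, and the widest change was that of XBP1, at a mean of 1979 under TP-064 and 4140 under DMSO. MZB1 hardly differed, at 3923 and 3977, and SDC1 was at a mean of 4.99 and 6.53. The part of these markers in the TNFRSF17 difference was not tested. TNFRSF17 spans 11965107 to 11968068 on the plus strand of chromosome 16.

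TNFRSF13B went the other way. TACI, its product, takes part in class switching and in antibody responses that do not need T cells. It read 1328, 1459 and 1357 normalized read counts under TP-064 and 1699, 1757 and 1791 under DMSO, so that every treated sample lay under every control. Its log2 fold change was -0.34 (SE 0.05), and -0.22 when libraries were scaled to their total reads alone. TNFRSF13B, on chromosome 17 from 16929816 to 16972118, shares 615 bases (17.3%) of its exon length with the pseudogene TBC1D27P on the same strand, where reads cannot be assigned to either with certainty. TBC1D27P itself was at 2376 ± 40.9 normalized read counts under TP-064 and 2808 ± 153 under DMSO (SD, n = 3 each).

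CD40, the receptor through which T cells help B cells, was lower as well. Its normalized read counts were 585, 679.5 and 604 under TP-064 and 947, 934 and 912 under DMSO. The highest treated sample, replicate 2, stayed under the lowest control. The log2 fold change was -0.58 (SE 0.06). CD40 is on chromosome 20, from 46118272 to 46129863.

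**Figure D1:**
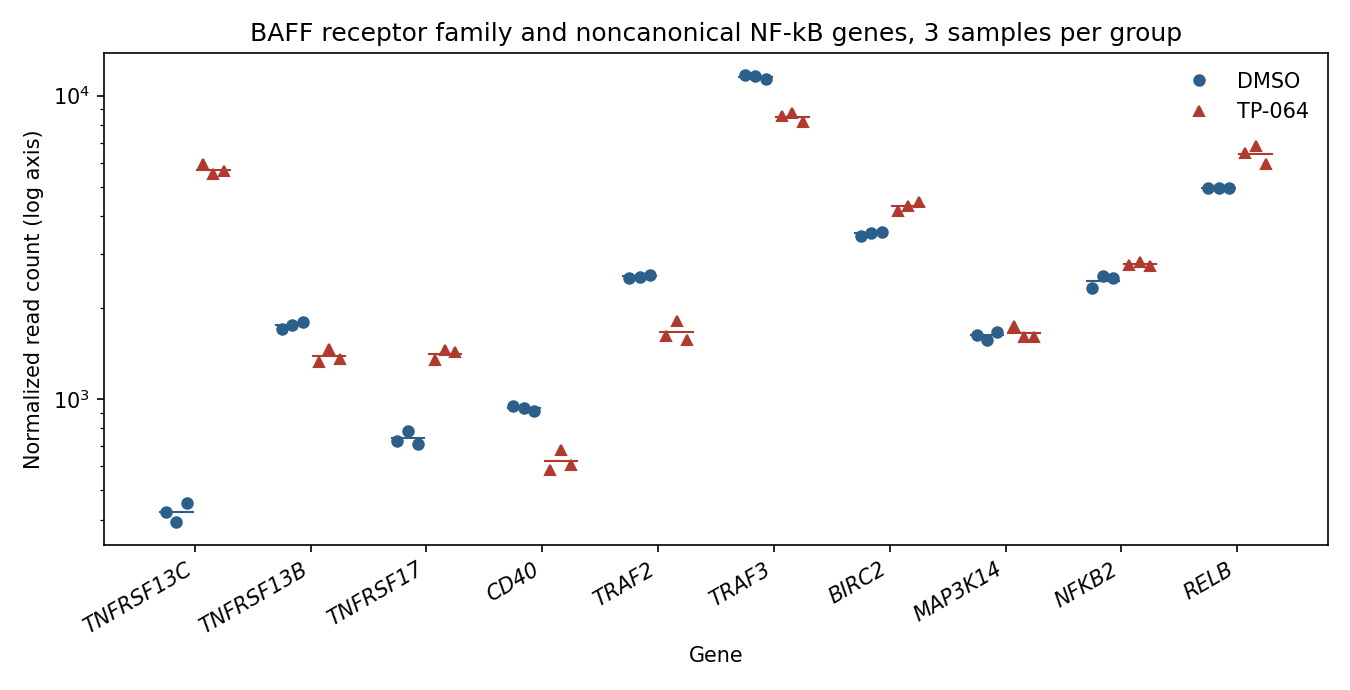
Normalized read counts (log axis) of the 10 genes in each sample, with DMSO as circles, TP-064 as triangles and group means as lines. The groups separate in every gene except MAP3K14, and TNFRSF13C shows the widest gap, from 423 to 5694 on average.

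The 3 receptors for BAFF and APRIL changed places in the pool of receptor transcripts. Levels of different genes were compared as normalized reads per kb of exon, with all annotated exons of a gene counted together. That length can differ from that of the transcripts expressed, so levels and ratios between genes are approximate. For TNFRSF13B the bases shared with TBC1D27P add to this. The summed level of the 3 was 3092.5 ± 15.3 per kb under TP-064 and 1262 ± 31.6 under DMSO (SD, n = 3 each). Of that sum TNFRSF13C held 48.9%, 44.9% and 46.2% in the 3 TP-064 samples and 8.71%, 7.65% and 9.17% in the 3 DMSO samples. TNFRSF17 held the largest share in all DMSO samples, at 50.6% to 54.2%, and 38.9% to 41.9% under TP-064. TNFRSF13B held 38.1% to 40.3% under DMSO and 12.2% to 13.2% under TP-064. The ratio of TNFRSF13C to TNFRSF13B was 0.218 ± 0.0149 under DMSO and 3.72 ± 0.316 under TP-064 (SD, n = 3 each).

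**Figure D2:**
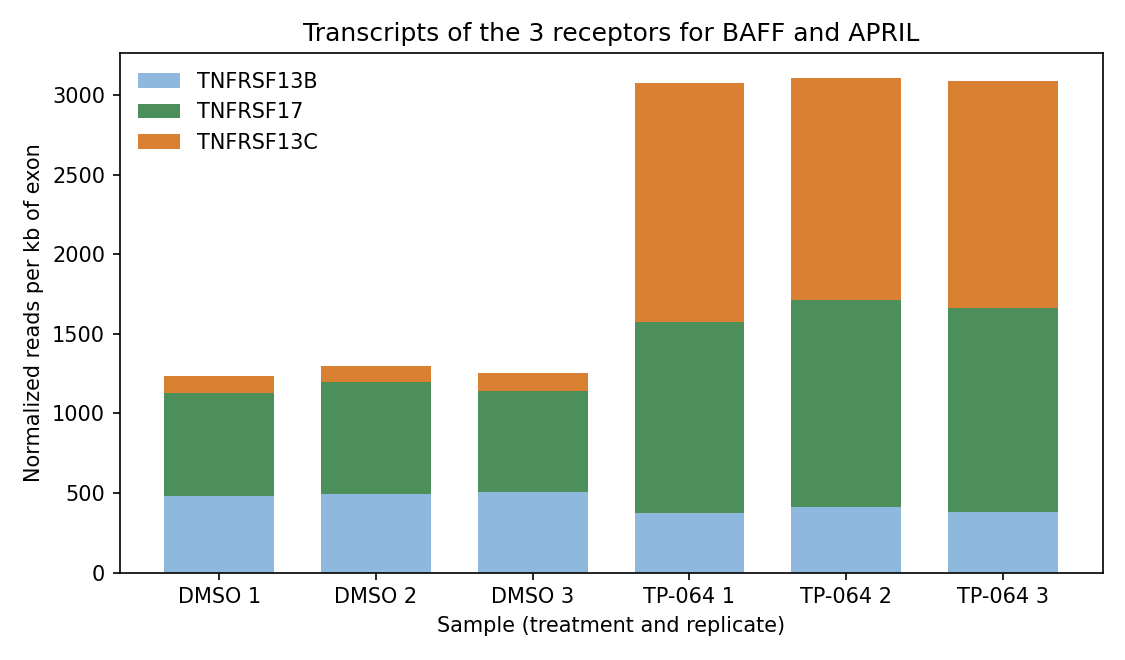
Normalized reads per kb of exon for TNFRSF13B, TNFRSF17 and TNFRSF13C, stacked by sample. TNFRSF13C makes up at most 9.17% of the stack in DMSO samples and at least 44.9% in TP-064 samples.

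The adaptors TRAF2 and TRAF3, which bring NIK to its ubiquitin ligase, were both lower. TRAF3 read 8549, 8762 and 8209.8 normalized read counts under TP-064 and 11659.7, 11568 and 11355 under DMSO, a log2 ratio of -0.44 (SE 0.03). TRAF2 read 1607, 1805 and 1559.9 under TP-064 and 2509, 2532 and 2562 under DMSO, a log2 ratio of -0.62 (SE 0.05). In neither gene did the groups overlap. TRAF2 was lower by the larger proportion, and the level of TRAF3 per kb was 2.28 ± 0.113 times that of TRAF2 under TP-064 and 2.02 ± 0.0481 times under DMSO (SD, n = 3 each). TRAF3 spans 102777476 to 102911500 on chromosome 14 and TRAF2 136881912 to 136926607 on chromosome 9.

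BIRC2 was higher and its neighbour BIRC3 lower. The pair encodes cIAP1 and cIAP2, closely related ubiquitin ligases that are recruited by TRAF2. BIRC2 read 4178, 4329 and 4450.2 normalized read counts under TP-064 against 3454, 3536 and 3554 under DMSO, a log2 ratio of 0.30 (SE 0.04). BIRC3, which is not one of the 10 genes, read 2214, 2636 and 2449.5 under TP-064 against 3879, 4286 and 3914 under DMSO. It fell by 0.73 on the log2 scale (SE 0.06; adjusted p = 2.85e-08 by limma). The ratio of BIRC2 to BIRC3 per kb was 2.96 ± 0.209 under TP-064 and 1.45 ± 0.0725 under DMSO (SD, n = 3 each). The genes follow each other on the plus strand of chromosome 11, BIRC3 from 102317450 to 102339403 and BIRC2 from 102347211 to 102378670.

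MAP3K14 was the gene of the 10 whose groups overlapped. NIK, its product, is the kinase on which the noncanonical pathway depends, and its amount is set largely by degradation of the protein. The gene read 1733, 1596 and 1606 normalized read counts under TP-064 and 1624, 1569.8 and 1662 under DMSO. TP-064 replicates 2 and 3 lay within the DMSO range, and replicate 1 above it. The log2 fold change was 0.02 (SE 0.05), with values from -0.015 to 0.044 when 1 replicate was left out, and 0.15 with scaling to total reads alone. MAP3K14, on chromosome 17 from 45263119 to 45317145, shares 713 bases (12.3%) of its exon length with MAP3K14-AS1 on the opposite strand. That antisense gene was low, at 61.3 ± 6.92 normalized read counts under TP-064 and 39.3 ± 5.65 under DMSO (SD, n = 3 each).

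The NF-kB subunits at the end of the pathway were modestly higher. NFKB2 read 2765, 2828 and 2745 normalized read counts under TP-064 and 2317, 2534 and 2505 under DMSO. The lowest treated sample stood above the highest control, while DMSO replicate 1 was the low sample of its group. Its log2 fold change was 0.18 (SE 0.04), or 0.30 with scaling to total reads alone. RELB read 6471, 6808 and 5952 under TP-064 and 4950.0, 4968 and 4941 under DMSO, a log2 ratio of 0.37 (SE 0.04). The DMSO values of RELB lay within 13.5 (SD) of their mean of 4953, whereas the TP-064 values spread over 431 (SD). NFKB2 lies on chromosome 10 from 102394110 to 102402529 and RELB on chromosome 19 from 45001430 to 45038198.

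NFKB2 and RELB were set beside NFKB1 and RELA, their counterparts in the canonical pathway. NFKB1, which encodes p105 and its product p50, fell from 9467 ± 198 to 7415 ± 65.2 normalized read counts (SD, n = 3 each), a log2 ratio of -0.35 (SE 0.03; adjusted p = 1.8e-07 by limma). RELA, which encodes p65, was not called, at a log2 ratio of 0.03 (SE 0.03; adjusted p = 0.489 by limma). With scaling to total reads alone RELA passed as higher, at 0.15 (limma adjusted p = 0.00111), within a range of adjusted p from 0.00111 to 1 over the alternatives. REL, which encodes c-Rel, rose by 0.16 (SE 0.05; adjusted p = 0.00866 by limma), beside 0.18 for NFKB2. The ratio of NFKB2 to NFKB1 per kb was 0.521, 0.527 and 0.521 under TP-064 and 0.342, 0.381 and 0.361 under DMSO. The ratio of RELB to RELA was 2.95 ± 0.176 under TP-064 and 2.32 ± 0.0321 under DMSO (SD, n = 3 each).

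The groups did not overlap for 9 of the 10 genes, with TP-064 above in 5 (TNFRSF13C, TNFRSF17, BIRC2, NFKB2 and RELB) and below in 4 (TNFRSF13B, CD40, TRAF2 and TRAF3). The share over all tested genes was 69.1% (33.9% above and 35.2% below), and since the genes were chosen with this comparison known nothing is read from the count. TNFRSF13C was the 1 gene past a 2-fold change, a size reached by 13.1% of all tested genes, 6.51% as higher and 6.56% as lower. Without TP-064 replicate 3 the log2 ratios were 3.76 for TNFRSF13C, 0.92 for TNFRSF17, -0.33 for TNFRSF13B and -0.56 for CD40. They were then -0.57 for TRAF2, -0.41 for TRAF3, 0.28 for BIRC2, 0.04 for MAP3K14, 0.19 for NFKB2 and 0.42 for RELB, so that no direction changed. The median log2 ratio of the 10 was 0.10, beside 0.01 for all tested genes.

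**Figure D3:**
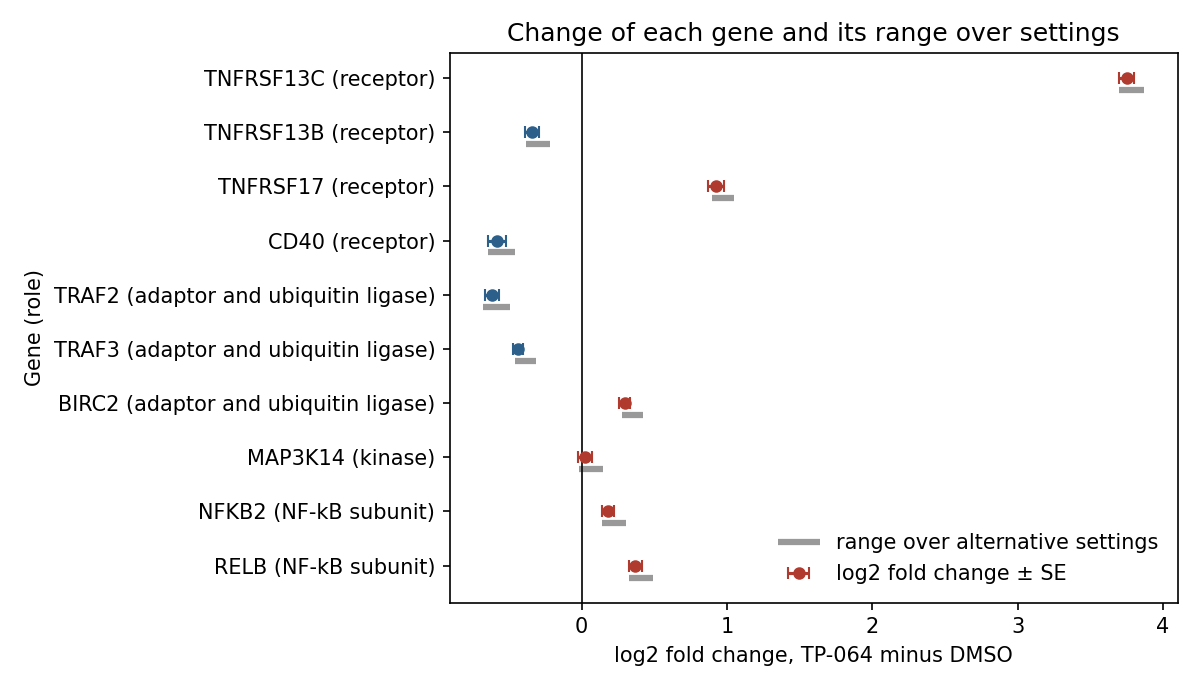
log2 fold change (TP-064 minus DMSO) of the 10 genes with its standard error, beside the range over the alternative settings as a grey bar. The bars stay on one side of 0 for 9 genes, and that of MAP3K14 crosses 0, from -0.015 to 0.15.

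Per kb of exon, the order of the 10 genes changed mainly through TNFRSF13C. In DMSO samples it was the lowest of them, at 107 ± 7.80 per kb, and in TP-064 samples it ranked 2, at 1444 ± 56.6 per kb (SD, n = 3 each). RELB was the highest in both groups, at 1632 ± 4.46 per kb under DMSO and 2112 ± 142 under TP-064. The order under DMSO was RELB, TRAF3, BIRC2, TRAF2, TNFRSF17, NFKB2, TNFRSF13B, CD40, MAP3K14 and TNFRSF13C. Neighbours in that order had separate ranges over replicates except TRAF2 and TNFRSF17, at 692 ± 7.21 and 662 ± 36.5 per kb (SD, n = 3 each). After TP-064 the order was RELB, TNFRSF13C, TNFRSF17, TRAF3, BIRC2, NFKB2, TRAF2, TNFRSF13B, MAP3K14 and CD40, and the ranges of all neighbours were separate.

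Promoter sequence was examined because NFKB2 and BIRC3 are textbook NF-kB targets, and because BIRC2 and BIRC3 lay on opposite sides of 0. RefSeq entries (GRCh38.p14) were found for 6 of the 10 genes and for BIRC3. TNFRSF13C, TNFRSF17, CD40 and RELB had no entry in the table used. The 250 bases before each listed start were searched on both strands for the NF-kB consensus and for the full cyclic AMP response element, TGACGTCA. The first was found in 9.96% and the second in 1.65% of all 35116 windows of that length. The NF-kB consensus was present in 2 of 3 NFKB2 windows, with 2 sites each, in the BIRC3 window with 2 sites, and in the TRAF3 window with 1. No match to either motif was found in the windows of TNFRSF13B, TRAF2 and MAP3K14, and in BIRC2 the cyclic AMP element was the only match. The stretches around the matches are given 5′ to 3′ on the plus strand, with the matched bases in capitals, and a match describes letters, not a bound site.
NFKB2, start 2, chr10:102394462-102394490: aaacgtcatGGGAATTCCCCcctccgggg
NFKB2, start 2, chr10:102394490-102394519: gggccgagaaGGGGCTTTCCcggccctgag
NFKB2, start 3, chr10:102395509-102395558: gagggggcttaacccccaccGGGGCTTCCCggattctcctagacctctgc
NFKB2, start 3, chr10:102395674-102395703: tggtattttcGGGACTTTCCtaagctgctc
BIRC3, chr11:102317265-102317314: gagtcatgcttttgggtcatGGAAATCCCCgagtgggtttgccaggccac
BIRC3, chr11:102317329-102317378: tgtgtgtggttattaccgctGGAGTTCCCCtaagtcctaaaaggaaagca
TRAF3, chr14:102777396-102777445: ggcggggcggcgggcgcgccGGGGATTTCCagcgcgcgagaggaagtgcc
BIRC2, start 2, chr11:102347196-102347225: gccgggcgcgcTGACGTCAtcgtgcgtcag
Genes with the NF-kB letters stood on both sides of 0, NFKB2 at 0.18 and TRAF3 and BIRC3 at -0.44 and -0.73 on the log2 scale. So did genes whose windows lacked them, BIRC2 at 0.30, MAP3K14 at 0.02, TNFRSF13B at -0.34 and TRAF2 at -0.62. The part of these letters in the differences was not tested.

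The rest of the pathway was described through 7 lists that hold 89 genes, of which 73 were tested. Of these, 30 were higher and 29 lower at a limma adjusted p of 0.05, which is 80.8% of them beside 65.1% of all tested genes. Their median log2 fold change was 0.05. The lists were chosen with earlier results of these data known and were not matched for expression level, so nothing is read from the 80.8%. With scaling to total reads alone the split was 37 higher and 22 lower, and all genes then shifted to a median of 0.13 from 0.01. Without TP-064 replicate 3 it was 31 higher and 27 lower. Past 2-fold were 7 of the 73 tested list genes, 1 higher and 6 lower. Over all tested genes the share was 13.1%, 6.51% as higher and 6.56% as lower. The count is given as a description only. TNFAIP3 was the 1 that rose, and LTB, TNFRSF1B, ICOSLG, TRAF5, FAS and CR2 fell. TRAF5, FAS and CR2 are named after their values were seen, at log2 fold changes of -1.33, -1.35 and -1.55.

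Ligands of the pathway were at low levels in these cells, LTB being the highest of those tested. Of 8 listed, 4 were in the table and 3 were tested, with 0 higher and 2 lower. LTB, the lymphotoxin subunit that engages the lymphotoxin beta receptor, fell from 525, 628 and 487 to 121, 152 and 124 normalized read counts. Its log2 fold change was -2.04 (SE 0.11; adjusted p = 4.3e-10 by limma). LTA, its partner subunit, fell by 0.89 (SE 0.16; adjusted p = 0.000147 by limma). TNFSF13B, the gene of BAFF, read 14.9, 10.9 and 21.3 under TP-064 and 10.4, 9.94 and 6.49 under DMSO, near the lower end of the measurement, and did not pass the test (limma adjusted p = 0.101). TNFSF13, the gene of APRIL, was under the filter, at 11.9 ± 4.11 and 5.20 ± 2.82 normalized read counts (SD, n = 3 each). CD40LG was not analysed here.

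Other receptors that feed the pathway were low too. Of 8 listed, 4 were in the table and 3 were tested, 1 higher, 1 lower and 1 not called. TNFRSF1B, the second TNF receptor, fell from 47.7 ± 4.56 to 9.56 ± 0.629 normalized read counts (SD, n = 3 each), a log2 ratio of -2.20 (SE 0.25; adjusted p = 1.87e-06 by limma). TNFRSF12A, the receptor of TWEAK, rose by 0.69 (SE 0.18; adjusted p = 0.00419 by limma), with normalized read counts of 56.3 ± 12.7 under DMSO and 89.9 ± 9.26 under TP-064 (SD, n = 3 each). LTBR, the lymphotoxin beta receptor, stood at 16.2 ± 3.50 and 16.6 ± 4.49 normalized read counts (SD, n = 3 each) and was not called. At 1 CPM in 3 samples as the filter, 1 gene of this list was called.

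Proteases that cut these receptors from the cell surface were mostly higher. ADAM10 and ADAM17 shed TACI and the BAFF receptor, and gamma-secretase cuts BCMA. Of 8 listed and tested genes 5 rose, 2 fell and 1 was not called, with a median log2 ratio of 0.18. ADAM10 rose from 6128, 5999 and 6226 to 11250.1, 10790.5 and 11556 normalized read counts, a log2 ratio of 0.87 (SE 0.04; adjusted p = 1.45e-11 by limma). NCSTN, the nicastrin subunit of gamma-secretase, rose by 0.53 (SE 0.04; adjusted p = 2.09e-08 by limma). APH1A, another subunit, fell by 0.32 (SE 0.04; adjusted p = 1.64e-06 by limma). ADAM17 fell by 0.20 (SE 0.04; adjusted p = 0.000334 by limma), a call that was lost with scaling to total reads alone (-0.07, limma adjusted p = 0.103), within a range of adjusted p up to 1 over the alternatives.

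Adaptors, regulators of NIK turnover and IKK1 formed a list of 15 tested genes, 6 higher, 8 lower and 1 not called, with a median of -0.11. PELI1, a ubiquitin ligase reported to act on NIK, rose from 2411 ± 84.9 to 4282 ± 45.4 normalized read counts (SD, n = 3 each), a log2 ratio of 0.83 (SE 0.04; adjusted p = 5.2e-11 by limma). OTUD7B, a deubiquitinase that protects TRAF3, rose by 0.53 (SE 0.04; adjusted p = 3.82e-08 by limma). BIRC3, given above, and CUL1 had the smallest p among the genes that fell, while the largest fall was that of TRAF5, given above. CUL1 fell by 0.36 (SE 0.03; adjusted p = 1.41e-07 by limma). CUL1 is the scaffold of the ligase that starts the processing of p100. CHUK, the gene of IKK1, fell by 0.31 (SE 0.04; adjusted p = 2.65e-06 by limma), with normalized read counts of 3863 ± 42.3 under DMSO and 3111 ± 100.2 under TP-064 (SD, n = 3 each).

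Of 19 genes of the canonical pathway 9 rose, 4 fell and 6 were not called, with a median of 0.08. TNFAIP3, the gene of the ubiquitin editing enzyme A20 that restrains NF-kB, rose from 5404, 5502 and 5399.7 to 11689, 11054 and 11149.8 normalized read counts. Its log2 fold change was 1.06 (SE 0.03; adjusted p = 1.04e-12 by limma). CYLD, a deubiquitinase that also restrains the pathway, rose by 0.53 (SE 0.04; adjusted p = 7.74e-09 by limma). NFKB1 led the falls, followed by NFKBIA, the gene of the inhibitor IkB alpha, which fell by 0.26 (SE 0.04; adjusted p = 4e-05 by limma).

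Genes known as targets of BAFF, CD40 or NF-kB in B cells went in both directions, with 5 of 14 tested higher, 7 lower and 2 not called, and a median of -0.54. ICOSLG, the ligand of the costimulatory receptor ICOS, fell from 1943, 1905 and 1868 to 680.0, 641 and 617 normalized read counts, a log2 ratio of -1.56 (SE 0.05; adjusted p = 9.28e-13 by limma). BCL2, the survival gene downstream of BAFF, fell by 0.59 (SE 0.03; adjusted p = 4.81e-10 by limma), with normalized read counts of 37351 ± 585 under DMSO and 24763 ± 179 under TP-064 (SD, n = 3 each). PIM2, a survival kinase, rose by 0.61 (SE 0.04; adjusted p = 3.52e-09 by limma). MCL1, the other survival gene tied to BAFF, rose by 0.36 (SE 0.03; adjusted p = 1.23e-07 by limma).

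The BAFF receptor also signals through PI3K. Of 11 tested genes of that arm 4 rose, 5 fell and 2 were not called, with a median of 0.05 and no change past 2-fold. SYK, a kinase shared with the B cell receptor, rose by 0.43 (SE 0.03; adjusted p = 3.16e-08 by limma). PIK3CA, a catalytic subunit of PI3K, rose by 0.47 (SE 0.03; adjusted p = 1.41e-08 by limma). RPS6KB1, a kinase downstream of mTORC1, fell by 0.60 (SE 0.04; adjusted p = 1.26e-09 by limma). Among the list genes named here, ADAM17, APH1A, CHUK, CUL1, FAS, LTBR, NCSTN, PELI1, PIK3CA and TNFAIP3 overlap an exon of another gene that runs in the opposite direction, and whether counting used the strand is not stated.

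**Figure D4:**
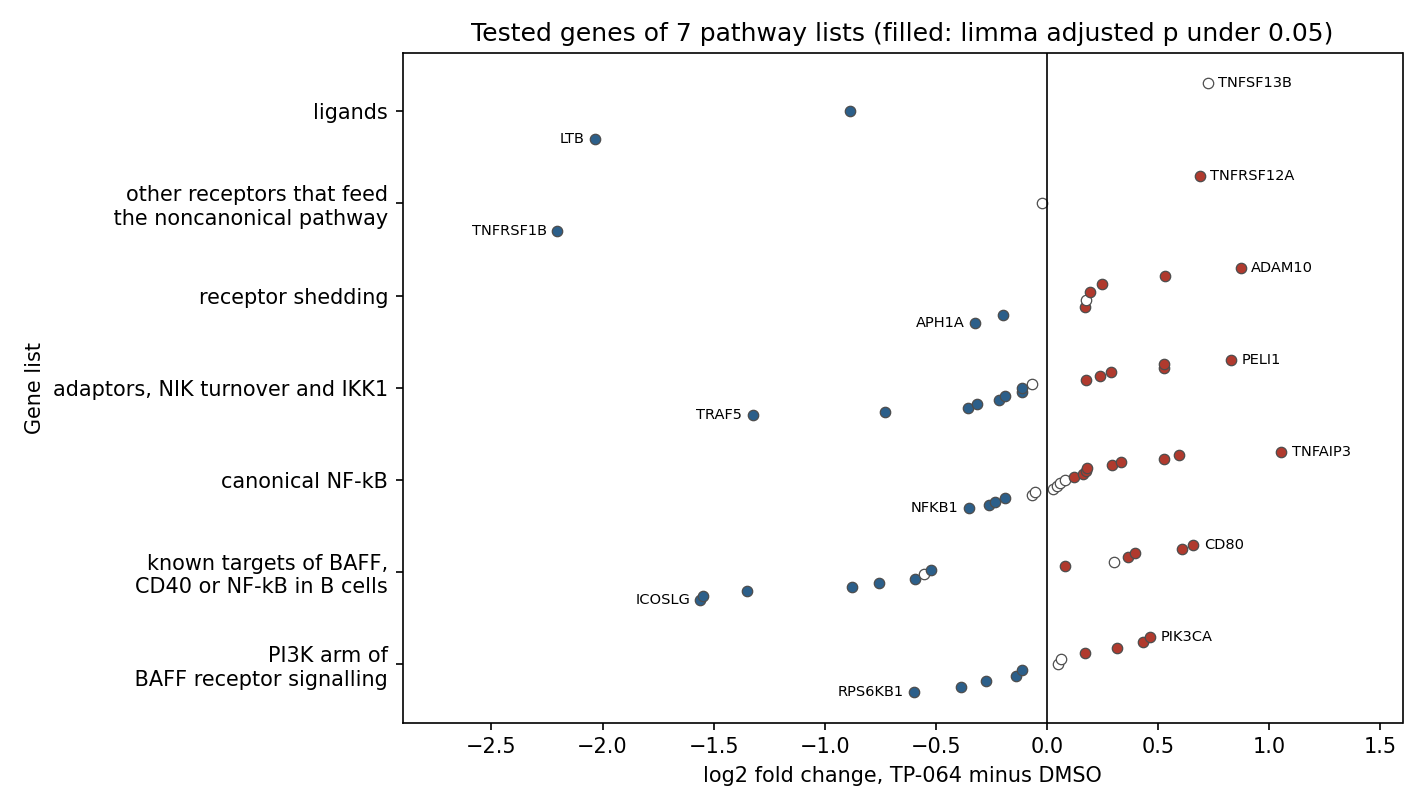
log2 fold change (TP-064 minus DMSO) of the tested genes in each of 7 pathway lists, filled where the limma adjusted p is under 0.05, with the lowest and highest gene of each list labelled. Every list has genes on both sides of 0, and the widest falls are TNFRSF1B (-2.20) and LTB (-2.04).

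The tested genomic neighbours of TNFRSF13C did not share its difference. Over all tested genes 31.9% were higher and 33.3% lower. Within 100 kb of the TNFRSF13C start, 4 other genes were tested, of which 0 were higher and 2 lower. With so few genes nothing is read from this count. The nearest, CENPM, which encodes a centromere protein, starts 20.3 kb upstream on the same strand. It fell from 2511, 2711 and 2846 to 887, 1049 and 796 normalized read counts, a log2 ratio of -1.57 (SE 0.08; adjusted p = 1.55e-10 by limma). SREBF2, a transcription factor of sterol synthesis, fell by 0.26 (SE 0.05; adjusted p = 0.000179 by limma). WBP2NL was low and not called, at 49.2 ± 4.04 and 44.2 ± 1.59 normalized read counts (SD, n = 3 each). SREBF2-AS1 was also low and not called, at 33.2 ± 4.45 under TP-064 and 40.9 ± 15.2 under DMSO (SD, n = 3 each). Its log2 ratio was -0.23 (SE 0.26).

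**Figure D5:**
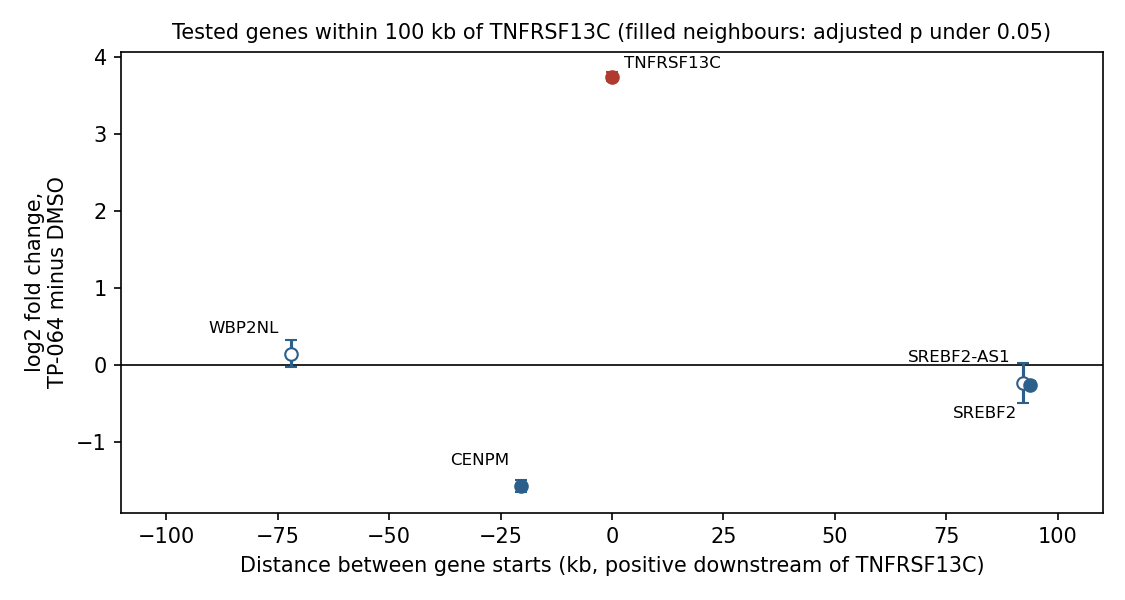
log2 fold change (TP-064 minus DMSO, with SE) of TNFRSF13C and of the 4 other tested genes that start within 100 kb, by distance between starts. TNFRSF13C stands at 3.75, and its neighbours lie between -1.57 and 0.15.

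The 5 protein-coding genes whose profile over the 6 samples was most like that of TNFRSF13C were TRIM72, SYTL2, PTCRA, RENBP and CAPSL. Likeness was the root mean square difference of log2 values after subtracting each gene's DMSO mean, and it ran from 0.171 for TRIM72 to 0.301 for CAPSL. SYTL2 was at 4676 ± 105 normalized read counts under TP-064 and 439 ± 10.4 under DMSO (SD, n = 3 each). PTCRA, which encodes the alpha chain of the T cell receptor precursor, was at 316 ± 5.29 and 28.2 ± 7.94, and RENBP at 2992 ± 131 and 283 ± 27.0 (SD, n = 3 each). With 2 groups this likeness reflects mainly the size of the difference between them.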

How the data were processed

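RNA-seq of 6 samples was analysed. The tools named, per the submitters' processing notes, are DESeq 1.18.0, HTSeq 0.6.0 and TopHat2 2.0.10, and the build is hg38. For the annotation release and the strand setting, the sources used here give nothing. The authors deposited a signal per gene and sample, the read count divided by a size factor. All values (100% in each column) were whole multiples of 1 step per column (tolerance 0.001). Reads were recovered from the step alone. For TP-064 replicate 2 and DMSO replicate 2 the step is close to 1. The size factors recomputed from the recovered reads, 1.01098 and 1.00589 for these samples, matched the inverse of the step.

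Genes with a mean of at least 10 were tested with limma 3.58.1 (R 4.3.3, trend option, 4 residual degrees of freedom) on log2(normalized read count + 1), with Benjamini-Hochberg adjustment, two-sided, at 0.05. That scale understates changes of low genes. Fold changes are TP-064 minus DMSO. Symbols, coordinates and exon lengths come from GENCODE 29, matched for 18214 of 18278 genes. The procedure was tested on simulated data in which only a small set of genes differed. In these data most tested genes were called, so that check does not cover the choice of scaling. Replicate pairs differed beyond sampling noise (chi-square per degree of freedom 3.06 to 7.63), so none was counted as a repeat.

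The members and lists were chosen with earlier results of these data known. From each list the rule names up to 2 called genes per direction with the smallest p, and direct partners of the 10 genes; 1 gene it names is not reported here. The neighbour comparison and the promoter search were chosen after values were seen. Alternatives were TMM and total-read scaling, edgeR 4.0.16, DESeq2 1.42.0, limma-voom, other filters and pseudocounts, a threshold of 0.01, leaving out each replicate, a replicate block and a null of a 1.2-fold change.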

Additional observations from a re-analysis of the deposited data

How the results depend on the processing

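Depth limits the ligands and the other receptors of the lists, which apart from LTB and LTA stood under 100 normalized read counts in every library. When the test asked for more than a 1.2-fold change, 5592 of all tested genes were called in place of 10449, and 30 pathway list genes in place of 59. By construction it asks for a larger change, and 6 named pathway genes no longer passed it (TNFRSF12A, ADAM17, APH1A, NFKBIA, CHUK and REL). With scaling to total reads alone, 61.5% of called genes were higher in place of 48.9%, ADAM17 was lost and RELA was gained. On the recovered reads, edgeR with TMM called 10562 genes and DESeq2 9724. Leaving out 1 replicate gave 9733 to 10260.0 calls over all genes and 56 to 58 over the pathway lists. Of the 10 genes, 9 kept their direction under every alternative. Whether a treated and a control replicate of the same number form a pair is not stated. Deviations from the group means correlated at -0.0859, 0.0659 and -0.0793 for numbers 1, 2 and 3. For unlike numbers they correlated at -0.1145 to 0.1464. With 3 samples per group these values cannot decide whether the samples were paired. With the replicate block 10491 genes and 59 pathway list genes were called.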

Other observations

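Neighbours of the other genes, chosen after their values were seen, gave a mixed picture. SNX29, which starts 11.6 kb downstream of TNFRSF17 on the same strand, rose together with it, from 3238 ± 16.4 to 5638 ± 256 normalized read counts (SD, n = 3 each), a log2 ratio of 0.80 (SE 0.04; adjusted p = 9.57e-11 by limma). GSPT1, on the other side of TNFRSF17, fell by 0.28 (SE 0.03; adjusted p = 2.19e-06 by limma). FBXL15, which starts 25.1 kb downstream of NFKB2, rose by 0.99 (SE 0.08; adjusted p = 2.3e-08 by limma), a wider change than that of NFKB2 itself at 0.18. Among 12 tested genes within 100 kb of TRAF2, 2 were higher and 6 lower. Since 65.1% of all tested genes were called, nothing is read from this count. MIR4292 lies within RABL6, and both were among the lower genes. TRAF3 had 0 tested neighbours in that window.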
